A study of Mus musculus with 5 samples.

Results

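The genes described here encode 10 serotonin receptors, Htr1a, Htr1b, Htr1d, Htr1f, Htr2a, Htr2c, Htr4, Htr5a, Htr6 and Htr7. They were chosen by name as the G protein-coupled serotonin receptors of interest, and the count tables list 32531 genes in all. RNA bound to tagged ribosomes was counted in 2 libraries from cerebral cortex and 3 libraries from dentate gyrus (DG), the granule cell region of the hippocampal formation. In translating ribosome affinity purification (TRAP), an antibody against EGFP pulls tagged polysomes out of a tissue homogenate. Both groups came from untreated adult mice that carried the Rbp4-Cre driver of the KL100 line together with the Rosa26-LSL-EGFP/Rpl10a allele, in which Cre removes a stop cassette and switches on an EGFP-tagged ribosomal protein. The groups therefore share genotype and differ in the tissue dissected. Cre is driven by Rbp4 regulatory sequence, so the tag reports the cells in which that transgene has been active. All 5 libraries are pulled-down fractions, and no input or untagged sample was analysed here. The labels do not say whether libraries came from separate or pooled animals, and the p-values therefore measure only how much these samples vary, which may be technical.

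Serotonin reaches both regions from raphe neurons of the brainstem and acts mostly through G protein-coupled receptors. The receptors encoded by Htr1a, Htr1b, Htr1d, Htr1f and Htr5a couple to Gi/o proteins, which lower cyclic AMP and can open GIRK potassium channels. Those encoded by Htr2a and Htr2c couple to Gq and phospholipase C, and those encoded by Htr4, Htr6 and Htr7 couple to Gs and raise cyclic AMP. In textbook accounts Htr2a is a receptor of deep-layer cortical pyramidal neurons, where serotonergic psychedelics act, while Htr1a and Htr4 are prominent in hippocampal granule cells.

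The called genes with the highest counts were Htr5a, Htr1a and Htr2a, and the sequence before their start sites is shown because Htr1a and Htr2a differed between the tissues in opposite directions. Each run covers 250 to 71 bases before the RefSeq start site on GRCm38.p6, 5′ to 3′ on the strand of the gene, from a table that held 9 of the 10 genes. Capitals mark GGGCGG, the core of a GC box, or its reverse complement CCGCCC. Positions are chr13:105443443-105443622 (plus strand) for Htr1a, chr14:74640624-74640803 (plus strand) for Htr2a and chr5:27841697-27841876 (plus strand) for Htr5a.
Htr1a: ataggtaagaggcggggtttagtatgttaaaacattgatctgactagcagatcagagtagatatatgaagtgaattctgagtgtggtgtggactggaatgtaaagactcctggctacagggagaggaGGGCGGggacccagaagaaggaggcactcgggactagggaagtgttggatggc
Htr2a: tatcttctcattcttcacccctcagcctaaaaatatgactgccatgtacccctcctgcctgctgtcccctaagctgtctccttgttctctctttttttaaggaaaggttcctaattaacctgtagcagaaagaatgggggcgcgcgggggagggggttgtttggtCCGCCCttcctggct
Htr5a: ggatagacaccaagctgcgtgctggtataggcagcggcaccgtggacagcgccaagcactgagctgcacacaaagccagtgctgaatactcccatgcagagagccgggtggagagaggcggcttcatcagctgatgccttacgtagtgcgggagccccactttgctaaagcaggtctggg

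The search covered both strands for GGGCGG, for TGACG, the core of a cyclic AMP response element, and for CAGATG, an E-box form bound by neurogenic bHLH factors. No searched motif overlapped another in the 3 printed runs. GGGCGG was present in 3 of the 11 receptor windows, at Htr1a, Htr2a and 1 of the windows of Htr1d, and in 21.1% of all 32851 windows of the same 180 bases. TGACG was present in 1 receptor window, that of Htr7, and in 10.7% of all windows. CAGATG was in 0 of the 11 receptor windows and in 10.8% of all windows. GC content of the printed runs was 48.9% for Htr1a, 51.1% for Htr2a and 59.4% for Htr5a. The GC box match was thus present at Htr1a, higher in DG, and at Htr2a, higher in cortex. By the GENCODE M21 annotation on GRCm38, Htr1a (chromosome 13, 105443639 to 105448122, plus strand), Htr1b, Htr1d and Htr1f each have their coding sequence in 1 block, Htr5a (chromosome 5, 27842149 to 27855088, plus strand) in 2, and Htr2a (chromosome 14, 74640840 to 74709494, plus strand) in 3.

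Counts per gene summed to between 22600963 and 36837908 per library. Levels are given as counts per 1e6 (CPM), with trimmed mean of M values (TMM) scaling. Granule cell markers checked the tissue labels, with 10 of 10 higher in DG and a summed level of 394 and 450 CPM in cortex against 5278 to 5715 CPM in DG. Of 8 layer 5 markers, 6 were higher in cortex and 1 (Bcl11b) in DG. Cortex replicate 1 stood apart in its Purkinje cell markers, which summed to 490 CPM against 7.13 CPM in cortex replicate 2 and 3.09 to 5.28 CPM in DG. In DG, Fezf2, a selector gene of deep-layer cortical neurons, was at 1.82, 60.2 and 17.5 CPM in replicates 1, 2 and 3.

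Receptor RNA was distributed differently in the 2 tissues. Htr2a, Htr5a, Htr1f, Htr7 and Htr1b were higher in cortex, Htr1a was higher in DG, Htr2c, Htr4 and Htr6 were not called, and Htr1d was too low to test. A gene was called when the edgeR quasi-likelihood test, fitted on all genes, gave a Benjamini-Hochberg adjusted p under 0.05. That is 6 of the 9 receptor genes tested (66.7%), against 21.3% of all 14136 genes tested. By direction, 5 were higher in cortex, where the share over all genes was 10.8%, and 1 was higher in DG, where it was 10.5%. Without cortex replicate 1 the calls were Htr1a and Htr2a, 2 in all. Without cortex replicate 2 they were Htr2a, Htr1f and Htr4, and without DG replicate 3 they were Htr2a, Htr1f and Htr5a, 3 in each case. With cortex replicate 1 and DG replicate 2 both left out they were Htr1a, Htr2a and Htr7. Htr2a was the receptor gene called in each of these fits.

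**Figure D1:**
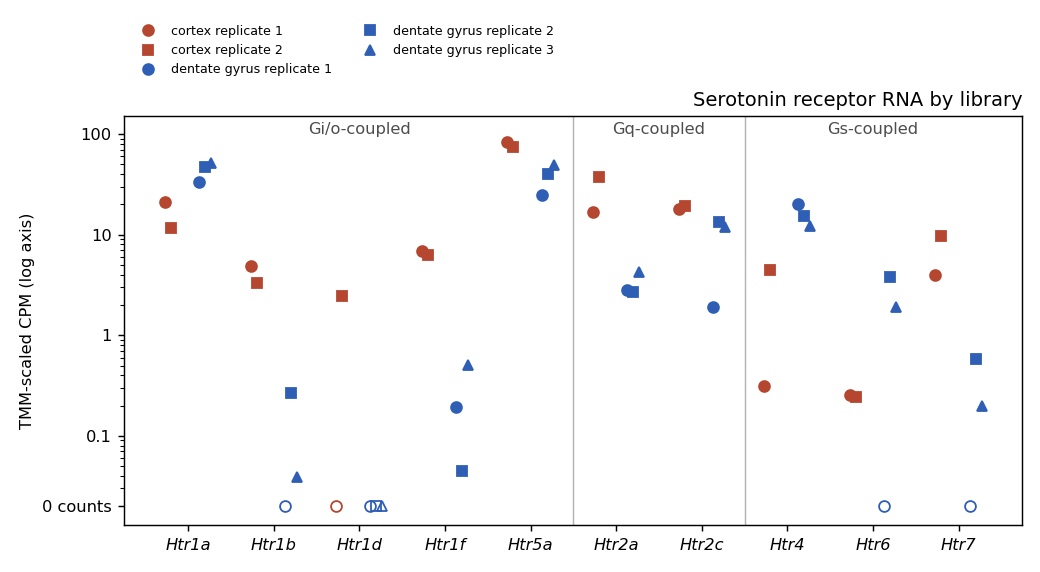
Level of each receptor gene in each library (CPM, TMM-scaled, log axis, with libraries at 0 counts as open symbols on the bottom line), grouped by the G protein the receptor couples to; colour is tissue and shape is replicate. Htr2a lies between 16.7 and 37.9 CPM in cortex and between 2.71 and 4.3 CPM in DG, while Htr1a lies between 11.6 and 21.2 CPM in cortex and between 33.4 and 52 CPM in DG.

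The levels of the tissues did not overlap for 8 of the 9 genes tested (88.9%), where 50.1% of all genes tested did not overlap. The median log2 fold change was -1.06 over the 9 receptor genes, the value of Htr2c, which was not called, and 0.02 over all genes tested. These 9 genes passed a filter on low counts, some through the tissue where they were high, and Htr1d did not pass it. In pulled-down RNA of a whole dissected region, fewer cells with a receptor and less receptor RNA per cell cannot be told apart.

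Among the Gi/o-coupled receptors, Htr1a reached 21.2 CPM in cortex replicate 1 and 11.6 CPM in cortex replicate 2. The DG libraries, from replicate 1 to replicate 3, held 33.4, 46.9 and 52 CPM. Every DG library was above both cortex libraries, and cortex replicate 2 was the lowest of the 5. Htr1a encodes the main somatodendritic inhibitory serotonin receptor. Mean levels were 16.4 ± 6.82 CPM (cortex, SD, n = 2) and 44.1 ± 9.65 CPM (DG, SD, n = 3), which gave a log2 fold change of 1.43 (SE 0.35) with an edgeR adjusted p of 0.0155. Leaving out cortex replicate 2 gave an adjusted p of 0.124, leaving out DG replicate 3 gave 0.0537, and blocking on replicate number gave 0.0514, in a range of 8.72e-05 to 0.124 over 14 alternatives.

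Htr5a, which encodes the least studied of these inhibitory receptors, had the highest counts of the family in cortex. It was at 83.3 and 74.5 CPM in cortex and at 24.7, 40 and 49.7 CPM in DG replicates 1, 2 and 3. Both cortex libraries were above the highest DG library, and DG replicate 1 was the lowest. The log2 fold change was -1.05 (SE 0.28) and the edgeR adjusted p 0.0267. Leaving out cortex replicate 1 raised it to 0.137, leaving out cortex replicate 2 to 0.0726, and leaving out cortex replicate 1 with DG replicate 2 to 0.19, in a range of 0.000268 to 0.19.

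Htr1f and Htr1b, whose receptors are the targets of antimigraine drugs of the ditan and triptan classes, were low in cortex and near the floor in DG. Htr1f had 6.92 and 6.27 CPM in cortex and was at 0.193, 0.0444 and 0.509 CPM in DG, from 7, 1 and 13 reads. The cortex libraries were close to each other and far above the DG libraries. Its log2 fold change was -4.70 (SE 1.03) with an edgeR adjusted p of 0.00975, which was 0.0639 without cortex replicate 1 and 0.103 without cortex replicate 1 and DG replicate 2 together, in a range of 1.32e-05 to 0.103.

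Htr1b was at 4.87 and 3.28 CPM in cortex. In DG it had 0, 6 and 1 reads in replicates 1, 2 and 3. A count of 0 in DG replicate 1 allows up to 0.0827 CPM, and such limits cover counting error only. The groups did not overlap, and the fitted log2 fold change was -5.35 (SE 1.46, edgeR adjusted p 0.0272). The adjusted p was above 0.05 when cortex replicate 1 (0.161), cortex replicate 2 (0.08) or DG replicate 3 (0.0649) was left out, when cortex replicate 1 and DG replicate 2 both were (0.105), and when replicate number was a block (0.0978), in a range of 0.000743 to 0.161. Htr1b overlaps the antisense gene D430036J16Rik, which had 310 and 51 reads in cortex and 0, 52 and 0 in DG. The strand setting of the counting is not given in the sources used here, so reads of this pair may not have been separated.

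Htr1d, the close relative of Htr1b, was counted in a single library. Cortex replicate 2 held 60 reads (2.46 CPM), and the other 4 libraries held 0, which allows up to 0.0855 CPM in cortex replicate 1 and 0.0827 to 0.133 CPM in the DG libraries. It did not enter the test. Without the low-count filter it was called by edgeR (log2 fold change -8.14, adjusted p 0.0155), a value that rests on that library.

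Of the Gq-coupled pair, Htr2a was higher in cortex. Cortex replicates 1 and 2 held 16.7 and 37.9 CPM, and the gene was at 2.81, 2.71 and 4.3 CPM in DG replicates 1, 2 and 3. The cortex libraries differed from each other, and the lower of them was still above every DG library. The log2 fold change was -3.06 (SE 0.47), an 8.32-fold difference, with an edgeR adjusted p of 0.00135. Over the 14 alternatives the log2 fold change ran from -3.53 to -2.38 and the adjusted p from 6.48e-09 to 0.0359, so the call held in each of them.

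Htr2c, on the X chromosome and known for RNA editing of its message, was at 18.2 and 19.3 CPM in cortex. The DG libraries held 1.93, 13.3 and 11.8 CPM. The groups did not overlap, but DG replicate 1 was far below the other two. The log2 fold change was -1.06 (SE 0.65) and did not pass (edgeR adjusted p 0.301). Without DG replicate 1 it was -0.60 (adjusted p 0.345), in a range of adjusted p from 0.0525 to 0.494 over the alternatives.

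Epithelial cells of the choroid plexus also express Htr2c, so their markers were read beside it. Of 10 choroid plexus markers, 6 were tested, 2 were higher in cortex and 1 in DG. The shares over all genes tested were 10.8% higher in cortex and 10.5% higher in DG. The summed level of the choroid plexus markers was 108 and 174 CPM in cortex and 19.3, 38.6 and 55.9 CPM in DG replicates 1, 2 and 3. Enpp2, which oligodendrocytes also express, gave most of the cortex sum at 105 and 160 CPM. Kl, the marker that was higher in DG, was at 0.285 and 2.46 CPM in cortex. In DG replicates 1, 2 and 3 it was at 7.67, 23.4 and 31.4 CPM. Among the DG libraries, Kl and Enpp2 were lowest in replicate 1, as was Htr2c. Ttr and Slc4a5, at 0.882 and 0.662 CPM, were highest in that replicate. Folr1 and Kcne2 were at 0 reads in all 5 libraries, and Ttr, the most abundant message of that epithelium, was at 0 and 7.09 CPM in cortex and at 0.882, 0 and 0.0783 CPM in DG. The part of these cells in the Htr2c values was not tested.

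Among the Gs-coupled receptors, Htr7 was higher in cortex. It was at 3.96 and 9.72 CPM in cortex and at 0, 0.577 and 0.196 CPM in DG replicates 1, 2 and 3. The groups did not overlap, and cortex replicate 2 was above replicate 1. The log2 fold change was -4.76 (SE 1.32, edgeR adjusted p 0.029). Leaving out cortex replicate 1, cortex replicate 2 or DG replicate 3 gave adjusted p-values of 0.0525, 0.225 and 0.0683, in a range of 0.000224 to 0.225.

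Htr4, whose receptor is a target of experimental fast-acting antidepressants, was at 20.3, 15.2 and 12.2 CPM in the DG libraries. In cortex it was at 0.313 CPM in replicate 1 and 4.43 CPM in replicate 2. Each DG library was above both cortex libraries, and the cortex libraries differed from each other, with 11 and 108 reads. The log2 fold change of 2.76 (SE 0.89) missed the threshold, with an edgeR adjusted p of 0.0532. It passed under 7 of 14 alternatives, which gave adjusted p-values from 3.17e-05 to 0.124. Among those that passed were edgeR with robust dispersion (0.0468) or a replicate block (0.0355), and DESeq2 (0.00464). Leaving out DG replicate 1, 2 or 3 gave edgeR adjusted p-values of 0.101, 0.0703 and 0.0694. The log2 fold change was 5.61 without cortex replicate 2 and 1.85 without cortex replicate 1.

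Htr6 had 9 and 6 reads in the cortex libraries (0.256 and 0.246 CPM). In DG it had 0 reads in replicate 1 and was at 3.82 and 1.92 CPM in replicates 2 and 3. The tissues overlapped, and the log2 fold change of 2.90 (SE 1.89) did not pass (edgeR adjusted p 0.332). It was 0.44 with a replicate block and 0.28 with limma voom, in a range of 0.28 to 3.47 over 12 alternatives, with adjusted p from 0.0817 to 0.967.

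**Figure D2:**
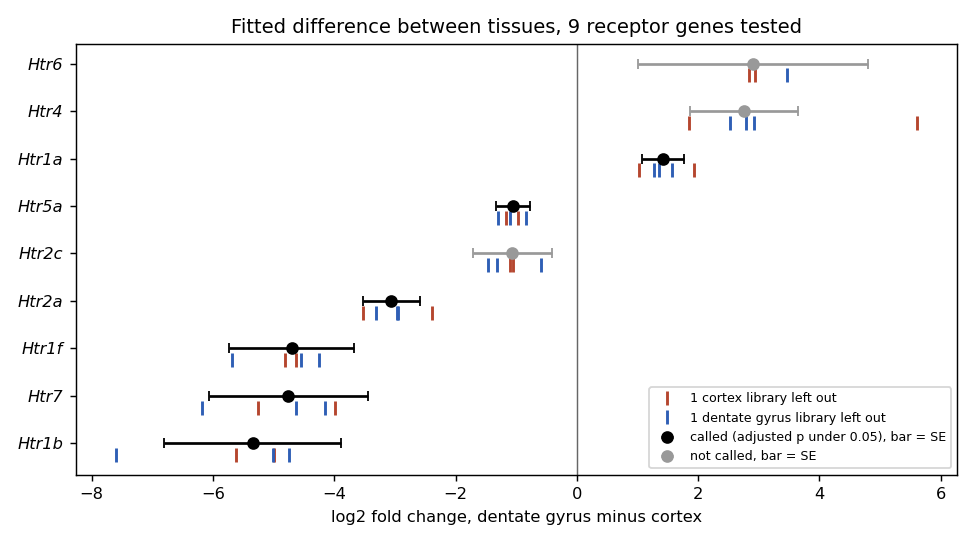
Fitted log2 fold change, DG minus cortex, of the 9 receptor genes tested, with the standard error as a bar; black points were called and grey points were not, and ticks under each point are fits with 1 library left out. Htr2a stays between -3.53 and -2.38, whereas the Htr4 value moves to 5.61 without cortex replicate 2.

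Of all libraries, Htr2c, Htr5a, Htr6, Htr7 and Htr1b were each lowest in DG replicate 1. Among the DG libraries, Htr1a was lowest in replicate 1 too, at 33.4 against 46.9 and 52 CPM, while Htr4, Htr2a and Htr1f were not. Some neuronal markers were also lowest in that library and others were not: Sv2b, a synaptic vesicle gene on the mossy cell list, was at 165, 497 and 318 CPM in DG replicates 1, 2 and 3, while Bcl11b was at 370, 311 and 314 CPM. The 8 layer 5 markers summed to 465, 581 and 445 CPM, of which Bcl11b, higher in DG, gave most. Most of the others were lowest in replicate 1. They were Fezf2 (1.82, 60.2 and 17.5 CPM), Etv1 (44.9, 96.8 and 56.9), Deptor (2.43, 14.1 and 2.86), Sulf2 (10.5, 23 and 25.4) and Tshz2 (4, 31.6 and 4.81). Parm1 (21.3, 35 and 20.5 CPM) and Rbp4 (9.93, 9.45 and 3.4 CPM) were not lowest there. The summed level of 6 mossy cell markers was 166, 501 and 321 CPM in DG replicates 1, 2 and 3, against 1809 and 1621 CPM in cortex. Nearly all of it was Sv2b, which is not limited to mossy cells. Of 5 tested, 3 were higher in cortex and 0 in DG, and Csf2rb2 was at 0 reads in every library. For 9 CA pyramidal markers the sums were 360, 441 and 366 CPM in DG against 471 and 494 CPM in cortex. Of these 9, 3 were higher in cortex and 2 in DG. Beside the mossy cell and CA lists, 10.8% of all genes tested were higher in cortex and 10.5% in DG. Cpne4, higher in DG, gave most of the DG sums at 285, 307 and 266 CPM, and was at 147 and 179 CPM in cortex. Mpped1 (1.88, 22.1 and 13.6 CPM), Wfs1 (24.6, 75.5 and 36.7 CPM) and Pvrl3 (8.27, 14.1 and 21.3 CPM) were lowest in DG replicate 1. The other CA pyramidal markers were not lowest there. The part of the cells marked by these lists in the receptor values was not tested.

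Interneuron markers were higher in cortex for 7 of 11 genes and higher in DG for 2. The shares over all genes tested were 10.8% higher in cortex and 10.5% higher in DG. The interneuron markers summed to 1168 and 1162 CPM in cortex and 300 to 345 CPM in DG. The neuropeptide gene Sst was at 699 and 641 CPM in cortex and 72.4 to 113 CPM in DG, Lamp5 at 156 and 140 against 18 to 36.3 CPM, and Pvalb at 27.5 and 11.6 against 0.0276 to 0.43 CPM. The GABA synthesis genes went opposite ways. Gad2 was higher in cortex, at 124 and 158 CPM against 30.5 to 54.5 CPM. Gad1 was higher in DG, at 26.6 and 41 CPM in cortex against 71.6, 57.2 and 64.7 CPM (log2 0.94, SE 0.26, edgeR adjusted p 0.0276), a call lost at 0.184 on leaving out cortex replicate 1, in a range of 0.00252 to 0.184. Interneurons also express serotonin receptors, and their part in the 5 receptor genes that were higher in cortex was not tested.

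Levels of different genes were compared per length, as CPM per kilobase of merged exons (RPKM). In cortex the order was Htr5a (14.7 ± 1.16), Htr2a (4.87 ± 2.67), Htr1a (3.65 ± 1.52), Htr1f (2.56 ± 0.18), Htr7 (2.01 ± 1.20), Htr2c (2.01 ± 0.09), Htr1b (0.86 ± 0.24), Htr4 (0.48 ± 0.59), Htr1d (0.38 ± 0.54) and Htr6 (0.11 ± 0.003) RPKM (SD, n = 2). Htr5a was above the next gene by more than the sum of their SDs, as was Htr2c above Htr1b, and the other neighbours in this order lay within their spread. In DG the order was Htr1a (9.84 ± 2.15), Htr5a (7.09 ± 2.34), Htr4 (3.24 ± 0.83), Htr2c (0.97 ± 0.66), Htr6 (0.82 ± 0.81), Htr2a (0.58 ± 0.16), Htr1f (0.096 ± 0.092), Htr7 (0.076 ± 0.086), Htr1b (0.022 ± 0.030) and Htr1d at 0 RPKM (SD, n = 3). Htr1a and Htr5a lay within their spread there, while Htr5a was above Htr4, Htr4 above Htr2c and Htr2a above Htr1f by more than the sum of their SDs. All these values divide by GENCODE M21 lengths, which may differ from the exons counted, since the annotation used for counting is not given. Htr2c depends on the length used, since its merged exons span 9328 bases and its longest coding transcript 4883. By the latter it was at 3.84 RPKM in cortex and moved from rank 6 to rank 3, and it was at 1.84 RPKM in DG.

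The summed level of the 10 genes was 30.2 and 33 RPKM in cortex and 17, 24.8 and 26.4 RPKM in DG replicates 1, 2 and 3. Shares of that sum describe the mix of receptor messages within a library and were not tested between tissues. Htr1a made up 15.6% and 7.81% of it in cortex and 43.9%, 42.2% and 43.9% in DG. Htr5a made up 51.3% and 42% in cortex and 27.1%, 30% and 34.9% in DG. These shares did not overlap between the tissues, nor did those of the Gq-coupled pair and of the Gs-coupled genes. As parts of the same sum, the shares are not independent of each other. For 50.1% of all genes tested, the CPM of the tissues did not overlap.

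The Gq-coupled pair held 16.3% and 26.7% of the sum in cortex and 4.18%, 7.7% and 7.68% in DG. The 3 Gs-coupled genes held 4.43% and 11.7% in cortex and 24.4%, 19.8% and 12.7% in DG. Within that class the main message was Htr7 in both cortex libraries and Htr4 in each DG library. The Gi/o-coupled class held 79.3% and 61.6% in cortex and 71.5%, 72.5% and 79.6% in DG, and overlapped. The ratio of Htr1a to Htr2a per length was 1.59 and 0.382 in cortex and 14.8, 21.7 and 15.1 in DG.

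**Figure D3:**
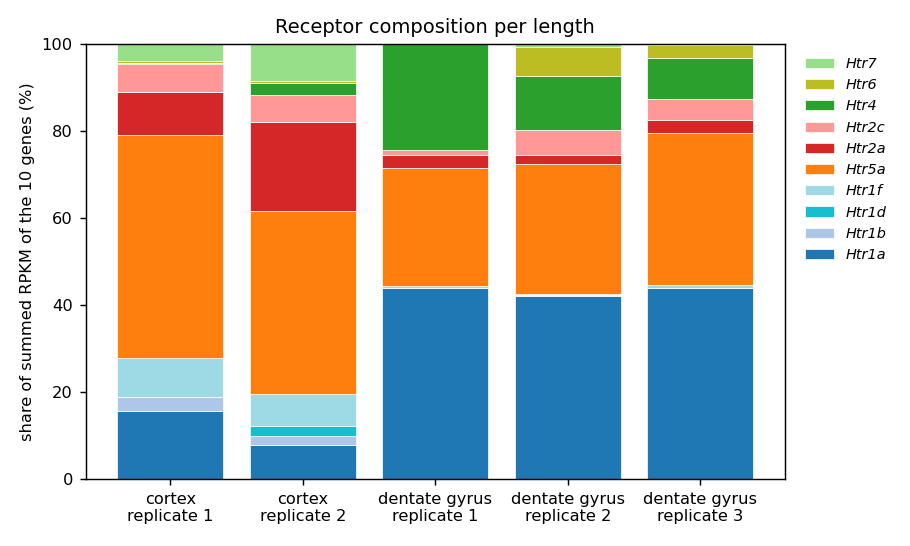
Share of each receptor gene in the summed RPKM of the 10 genes (percent, y axis) for each library (x axis). Htr1a takes 42.2% to 43.9% in DG and 7.81% to 15.6% in cortex, where Htr5a takes 42% to 51.3%.

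Receptors outside the chosen genes were low. Htr2b and Htr3b had 0 reads in all 5 libraries. Htr3a, a subunit of the serotonin-gated ion channel found in a class of interneurons, was at 0.057 and 0.861 CPM in cortex and at 0.772, 0.0888 and 4.81 CPM in DG, and did not pass (edgeR adjusted p 0.468). Htr5b was at 6.61 CPM in DG replicate 2, from 149 reads, and at 0 to 0.369 CPM in the other libraries. Neither gene separated the tissues.

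The genes of serotonin synthesis and the serotonin transporter gene were at or near 0. Those of breakdown and vesicle loading had CPM in the range of several receptor genes, a comparison that takes no account of gene length. The serotonin transporter gene Slc6a4 had 0 reads in every library, and Fev, the raphe selector gene, had 1 read in total. Tph2, the rate-limiting enzyme of serotonin synthesis in neurons, was at 0.912 and 0.451 CPM in cortex, from 32 and 11 reads, and had 0 reads in DG. It missed the threshold (log2 fold change -7.305, SE 2.196, edgeR adjusted p 0.0507). Maoa, a monoamine oxidase gene, was at 13.2 and 16.5 CPM in cortex and 5.2 to 7.75 CPM in DG, and Maob at 6.33 and 5.25 against 0.743 to 4.3 CPM. Slc18a2, the vesicular monoamine transporter gene, was at 14 and 8.57 CPM in cortex and 15.6 to 16.3 CPM in DG. These 3 genes did not pass (edgeR adjusted p 0.0811, 0.268 and 0.426). Of 9 genes on this list 5 were tested, and Slc29a4 was called, where 21.3% of all genes tested were called. Slc29a4 encodes a low-affinity monoamine transporter of the plasma membrane. It was at 0.826 and 3.03 CPM in cortex and at 21.8, 17.8 and 17.6 CPM in DG (log2 fold change 3.32, SE 0.61, edgeR adjusted p 0.00371).

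Partners of the receptors at the membrane differed for 2 of 8 tested genes, both higher in cortex, a share near the 21.3% called over all genes tested. S100a10 encodes a small calcium-binding family protein that binds the receptors encoded by Htr1b and Htr4 and helps carry them to the cell surface. It was at 15.6 and 13.2 CPM in cortex and at 0, 0.666 and 0.157 CPM in DG, a log2 fold change of -5.78 (SE 1.12, edgeR adjusted p 0.00505). The scaffold gene Dlg1 had a log2 fold change of -1.17 (SE 0.25, edgeR adjusted p 0.00862), which was 0.055 without cortex replicate 2, in a range of 2.26e-06 to 0.055. Of 7 receptor kinases and arrestins, Arrb1, a beta-arrestin gene, was called, at 233 and 282 CPM in cortex and 116 to 141 CPM in DG (log2 -1.04, SE 0.16). Of 3 adenosine deaminases, Adarb2, a family member without known editing activity, was higher in DG (log2 3.84, SE 0.43), while Adarb1, an enzyme that edits Htr2c, had 124 ± 5.99 CPM in cortex (SD, n = 2) against 97.5 ± 3.45 CPM in DG (SD, n = 3) and did not pass (edgeR adjusted p 0.152). Adarb2 is also on the interneuron list.

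Among the G protein alpha subunits, 4 of 9 tested genes were higher in cortex and 2 in DG. Over all genes tested, 10.8% were higher in cortex and 10.5% in DG. The Gi/o subunit genes Gnao1 (2505 and 2261 CPM in cortex, 1312 to 1498 CPM in DG, log2 -0.77, SE 0.09) and Gnai1 (log2 -1.03, SE 0.19) were higher in cortex, as was the Gs gene Gnas (log2 -0.61, SE 0.09). Gnal, which encodes the Gs-like olfactory subunit, was higher in DG, at 1067 to 1219 CPM against 586 and 647 CPM (log2 0.86, SE 0.11). Gnaq, the gene of the Gq subunit, was also higher in DG, at 389 and 435 CPM in cortex against 595, 530 and 594 CPM (log2 0.48, SE 0.12, edgeR adjusted p 0.0175), with an adjusted p of 0.122 without cortex replicate 1, in a range of 0.00274 to 0.122. Of the Gq effectors tested, 2 of 6 were higher in cortex and 0 in DG. They were the phospholipase gene Plcb4, at 193 and 198 CPM against 16.3, 20.7 and 22.5 CPM (log2 -3.30, SE 0.20), and the inositol trisphosphate receptor gene Itpr1, at 839 and 962 CPM against 283 to 302 CPM (log2 -1.63, SE 0.11). Purkinje cells express both genes highly, and the part of these cells in the differences was not tested. Both genes were called in the fit without cortex replicate 1.

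Of 8 tested adenylyl cyclases, which Gs activates and Gi/o inhibits, 2 were higher in DG and 1 in cortex. Adcy1 was at 805 and 941 CPM in cortex and 1438 to 1886 CPM in DG (log2 0.96, SE 0.13), and Adcy9 had a log2 fold change of 0.82 (SE 0.16). Adcy5 was higher in cortex (log2 -1.09, SE 0.26, edgeR adjusted p 0.0145), with an adjusted p of 0.156 without cortex replicate 2, in a range of 0.000409 to 0.156. Of 3 tested GIRK subunit genes, 2 were higher in DG. The shares over all genes tested were 10.5% higher in DG and 10.8% higher in cortex, beside both of these short lists. Kcnj6 was at 57.2 and 73.3 CPM in cortex and at 257, 240 and 289 CPM in DG (log2 2.01, SE 0.17), and Kcnj3 at 155 and 126 against 317, 277 and 275 CPM (log2 1.05, SE 0.15). Median log2 fold changes were 1.05 for the GIRK list, -0.93 for the Gq effectors, -0.65 for the cyclases and -0.48 for the alpha subunits, beside 0.02 over all genes tested. The summed level of the cyclases, mostly Adcy1, went the other way from their median. It was 1087 and 1246 CPM in cortex and 2175, 1719 and 2021 CPM in DG replicates 1, 2 and 3.

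**Figure D4:**
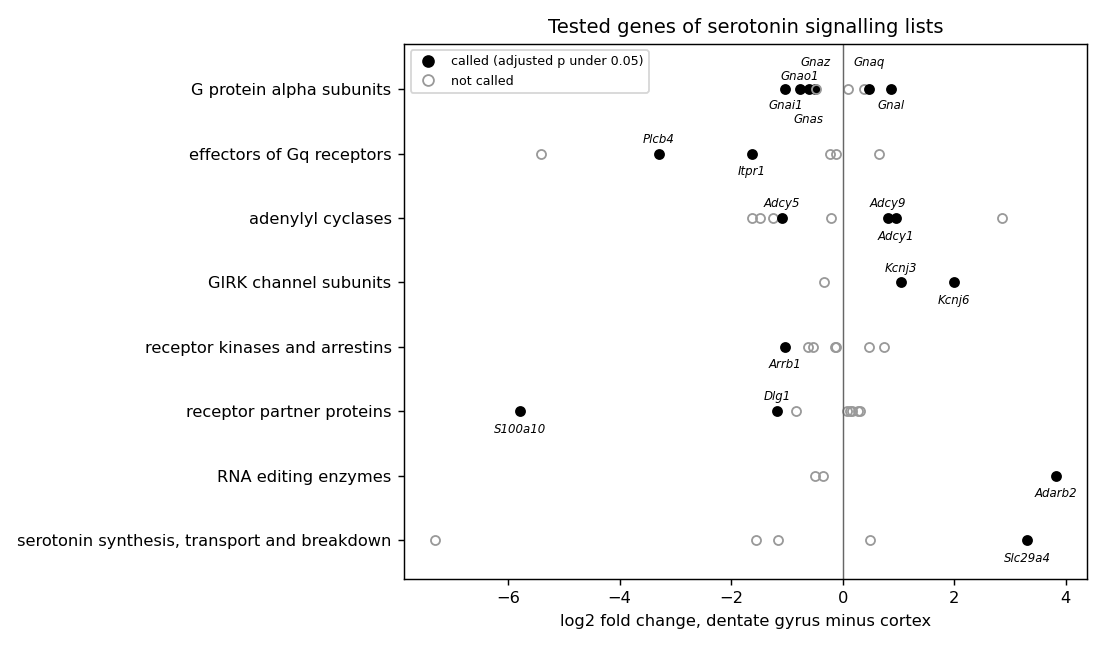
Log2 fold change (DG minus cortex) of each tested gene on 8 lists around serotonin signalling, filled and named where the gene was called and open where it was not. Kcnj6 and Kcnj3 lie to the right at 2.01 and 1.05, and Plcb4 and Itpr1 to the left at -3.30 and -1.63.

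The genes whose pattern over the 5 libraries was most like that of the leading receptor were named by the distance between log2 CPM values centred for each gene. For Htr5a, with the highest CPM in cortex, they were Spryd3, Slc7a8 and Nsg1, at distances of 0.221, 0.231 and 0.252 log2 units. For Htr1a, with the highest CPM in DG, they were Gabrb1, AK153645 and Btf3, at 0.179, 0.188 and 0.285 log2 units. Gabrb1, a GABA-A receptor subunit gene, was at 12.9 and 7.17 CPM in cortex and at 18.3, 25.4 and 29.9 CPM in DG.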

How the data were processed

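Ribosome-bound RNA of 2 cortex and 3 dentate gyrus libraries was analysed. The deposited values are raw counts per gene symbol, made by the authors with STAR 2.0.0e and HTSeq on mm10, per the submitters' processing notes. The annotation was not given in the sources used here, nor was the strand setting. Rows that name no gene were left out. Reads without a feature were 10.59% to 14.83%, reads that were not unique 25.03% to 31.76% and ambiguous reads 1.81% to 1.87% of each library.

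Counts were fitted with edgeR 4.0.16 in R 4.3.3: TMM scaling, filterByExpr, a quasi-likelihood test on tissue for 14136 genes, and Benjamini-Hochberg adjustment over all of them. All adjusted p-values come from this fit unless another is named. An SE is the fold change divided by the root of F. Libraries of 1 tissue differed by more than counting noise (chi-square per degree of freedom 42.4 to 58.6). RPKM used GENCODE M21 exons. The fit was tested on simulated data. Lists, members and alternatives were chosen with earlier results of these data known. The text names every receptor gene. The rule for the other lists was up to 4 called genes by smallest adjusted p, if the mean count in the higher tissue reached 50. It was followed for the signalling lists, while cell type marker lists are given mainly as counts and sums. For the receptor gene with the highest mean CPM in each tissue it names the 3 genes nearest in row-centred log2 CPM. Other genes were named after their values were seen. Alternatives were other scalings and filters, a replicate block, robust dispersion, DESeq2 1.42.0, limma voom 3.58.1, leaving out libraries, and another gene length. Figures used matplotlib 3.10.9.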

Additional observations from a re-analysis of the deposited data

How the results depend on the processing

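For the 9 receptor genes tested, 101 of 124 recomputed fold changes kept their direction and side of the threshold, 16 lost the call, 7 (all Htr4) gained it and 0 changed sign. The number of receptor genes called was 6, and 2 to 6 with 1 library left out (higher in cortex 1 to 5, higher in dentate gyrus 0 to 1). With cortex replicate 1 and dentate gyrus replicate 2 both left out it was 3, of which 2 were higher in cortex. With no filter, the stricter filter, robust dispersion, DESeq2 or limma voom, 2 receptor genes were higher in dentate gyrus, Htr1a and Htr4. Over all genes, 3009 were called (1481 higher in dentate gyrus, 1528 in cortex), and 1886 to 2775 with 1 library left out (908 to 1276 and 913 to 1499). With both libraries left out 1578 were called, 771 and 807 by direction. The replicate numbers are shared by the tissues, but the labels do not say that they pair the libraries, and deviations of same-numbered libraries correlated at -0.01 across genes. With a replicate block, 2237 genes and 5 receptor genes were called, with Htr1a and Htr1b lost and Htr4 gained. The longest coding transcript moved the level of Htr2c, to 3.84 RPKM in cortex, by more than its spread. Htr6 has no value with only dentate gyrus replicate 2, or only replicate 3, left out, where it did not pass the filter. With 1 cortex library left, that library is assumed to vary like the dentate gyrus libraries. Low counts limit what can be said of Htr1b, Htr1d, Htr6 and Htr7, which had 0 reads in at least 1 library. Each of them had 0 reads in dentate gyrus replicate 1, the library with the most gene counts (36837908).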
